A study of Mus musculus with 19 samples.

Results

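The regions described here are the 5-hmC peaks of cardiomyocytes (CMCs) whose centre lay in a coding exon, that is, on a base that a curated RefSeq transcript translates, more than 1 kb from any transcription start site and outside the stretch from 100 bp before to 1 kb after any transcript end. Over the 8 peak lists, 32435 of 989991 autosomal peaks met this rule. They came from 4018 peaks in E14.5 replicate 1, 3172 in E14.5 replicate 2, 4089 in Neonatal replicate 1, 4195 in Neonatal replicate 2, 4574 in Adult replicate 1, 5825 in Adult replicate 2, 4674 in TAC replicate 1 and 1888 in TAC replicate 2. The rule used positions alone. 5-hmC was profiled by hMeDIP sequencing, in which DNA that carries 5-hydroxymethylcytosine is precipitated with an antibody and sequenced, in CMCs isolated from C57BL/6J mice. The groups were E14.5 (embryos), Neonatal (1 to 2 days after birth), Adult (2 months) and TAC, adult mice studied 1 week after transverse aortic constriction, an operation that narrows the aorta and overloads the heart until it becomes hypertrophic. Each group had 2 biological replicates, and embryonic and neonatal cells came from ventricles and adult cells from the left ventricle. The preparations were enriched for CMCs by sedimentation or centrifugation and were not pure, so a smaller share of CMCs and fewer marked molecules per CMC cannot be told apart.

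5-hmC is made from 5-methylcytosine by the TET dioxygenases, mostly at cytosines followed by guanine (CpG), and in differentiated tissues it is known to mark enhancers and the gene bodies (GB) of transcribed genes. Coding exons are usually short, richer in G, C and CpG than the introns around them, and densely methylated away from the promoter, so they offer many substrate cytosines in little sequence. Exons are joined in transcripts by splicing, and the last ones carry the stop codon and lead into the untranslated end of the transcript.

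The lists held 104215 to 153637 peaks. The number of reads behind each list was not known, since the text of the study gives lower bounds per condition only. TAC replicate 2 stood apart on the coding exons: its share of peaks there was the lowest of the 8, it showed hardly any difference between exons and introns, and 39.4% of its coding exon peaks overlapped a peak of TAC replicate 1, whereas 20.6% of those of TAC replicate 1 did so in the other direction. The tests and the counts that rest most on it are therefore also given without it, while values listed sample by sample show it beside the others. The headers of the peak files give no fragment length or shift, so it is not known whether this list was made with the same settings, on which the position of a peak centre depends. As to the cell type, 7 of 8 CMC marker genes held a peak within the gene in all 8 lists, with a summed number of 107 to 234 peaks per list, against 2 to 9 for 8 fibroblast markers, none of which was marked in all lists, and 42 to 86 for 8 endothelial markers, of which 6 were. Of the 8 fibroblast markers, *Col3a1* and *Tcf21* held no peak in any list. Each of the others held a peak in at least 1 list, and *Col1a1* had 4 and 4 at E14.5, 2 and 2 for Neonatal, 1 and 2 for Adult, and 3 and 0 for TAC. A peak count depends on gene length, and most CMC marker peaks lay in the long genes *Ttn* (27 to 73 per list) and *Ryr2* (43 to 109). The other CMC markers held 0 to 25 peaks each per list, and the endothelial markers 0 to 33. The sums of the marker sets are therefore no measure of purity. The part of endothelial cells in the results below was not tested.

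To show what such regions look like, 300 bases around the median peak centre are printed from the mm10 reference, read on the strand of the gene, with each CpG in capitals, for those of the named exons whose peak centres lay within 600 bp of each other. The first pair belongs to exons that held a peak centre in all 8 lists. *Irs1* encodes an adaptor of the insulin receptor, and its marked exon, exon 1 of 2, held 8 centres within 571 bp. *Proser1*, whose product is known to bind TET2, was marked in exon 11 of 13, with 8 centres within 240 bp. The printed windows hold 14 and 8 CpG.
Irs1, chr1:82288774-82289073, minus strand: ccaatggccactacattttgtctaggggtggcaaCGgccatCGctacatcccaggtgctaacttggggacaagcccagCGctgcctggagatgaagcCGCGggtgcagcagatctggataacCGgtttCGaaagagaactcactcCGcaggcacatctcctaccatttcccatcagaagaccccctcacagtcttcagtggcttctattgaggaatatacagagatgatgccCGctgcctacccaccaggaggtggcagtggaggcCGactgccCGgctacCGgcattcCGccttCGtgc
Proser1, chr3:53478143-53478442, plus strand: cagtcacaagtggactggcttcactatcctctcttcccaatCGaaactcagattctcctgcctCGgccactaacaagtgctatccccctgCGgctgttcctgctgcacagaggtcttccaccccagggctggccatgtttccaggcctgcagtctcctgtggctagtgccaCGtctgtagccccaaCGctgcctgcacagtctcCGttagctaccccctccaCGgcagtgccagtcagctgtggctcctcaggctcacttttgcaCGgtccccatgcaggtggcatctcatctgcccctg
The next exons held a centre in all 4 E14.5 and Neonatal lists and were touched by no peak in the 4 Adult and TAC lists. *Zdbf2* is an imprinted gene, and *Taf3* encodes a subunit of the general transcription factor TFIID. Their 4 centres lay within 98 and 290 bp, and the printed windows hold 4 and 9 CpG.
Zdbf2, chr1:63303635-63303934, plus strand: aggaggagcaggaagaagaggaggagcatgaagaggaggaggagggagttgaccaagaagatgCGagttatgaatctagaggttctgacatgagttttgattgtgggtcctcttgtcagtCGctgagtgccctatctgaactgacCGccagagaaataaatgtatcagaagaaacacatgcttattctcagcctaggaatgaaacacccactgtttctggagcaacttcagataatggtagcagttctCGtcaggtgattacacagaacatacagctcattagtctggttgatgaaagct
Taf3, chr2:9951372-9951671, minus strand: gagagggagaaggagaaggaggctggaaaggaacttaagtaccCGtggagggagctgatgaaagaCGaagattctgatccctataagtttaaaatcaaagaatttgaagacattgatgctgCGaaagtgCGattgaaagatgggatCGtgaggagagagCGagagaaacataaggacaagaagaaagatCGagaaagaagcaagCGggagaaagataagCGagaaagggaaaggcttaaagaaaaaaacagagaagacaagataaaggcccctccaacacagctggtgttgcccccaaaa
The last is the reverse case, exon 2 of 8 of *Nab1*, a corepressor of EGR transcription factors, with a centre in all 4 Adult and TAC lists within 460 bp, no peak touching it in the 4 E14.5 and Neonatal lists, and 8 CpG in the window.
Nab1, chr1:52490103-52490402, minus strand: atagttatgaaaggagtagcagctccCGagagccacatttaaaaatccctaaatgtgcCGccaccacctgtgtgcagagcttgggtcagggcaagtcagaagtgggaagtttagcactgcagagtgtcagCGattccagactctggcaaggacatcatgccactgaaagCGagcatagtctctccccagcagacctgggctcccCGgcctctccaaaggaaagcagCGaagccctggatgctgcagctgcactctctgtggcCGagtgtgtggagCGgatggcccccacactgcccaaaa

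Coding exons carried more peaks per base than introns in all 8 lists. Eligible coding sequence covered 28.8 Mb, or 1.20% of the known autosomal bases, whereas the share of peaks centred on it was 3.08% in E14.5 replicate 1 (95% Wilson interval 2.99 to 3.17, counting error only), 2.31% in E14.5 replicate 2, 3.03% and 2.77% in the Neonatal replicates, 4.41% and 4.82% in the Adult replicates, 4.47% in TAC replicate 1 and 1.76% (1.69 to 1.84) in TAC replicate 2. The density was 140, 110, 142, 146, 159, 202, 162 and 65.6 peak centres per Mb of coding exon, in the same order of samples, and 71.2, 71.1, 76.9, 84.4, 68.4, 77.9, 67.5 and 60.4 per Mb of intron. The ratio of both was thus 1.96 and 1.55 at E14.5, 1.85 and 1.73 for Neonatal, 2.32 and 2.60 for Adult, and 2.41 and 1.09 for TAC. On the log2 scale the mean ratio was 0.91 ± 0.41 (SD, n = 8), above 0 in 8 of 8 samples, and an exact two-sided permutation test that exchanged signs within samples gave p = 0.0078, the smallest it can give (adjusted p = 0.013 over 5 values tested so). Without TAC replicate 2 the mean was 1.02, with an exact p = 0.016, again the smallest possible.

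**Figure D1:**
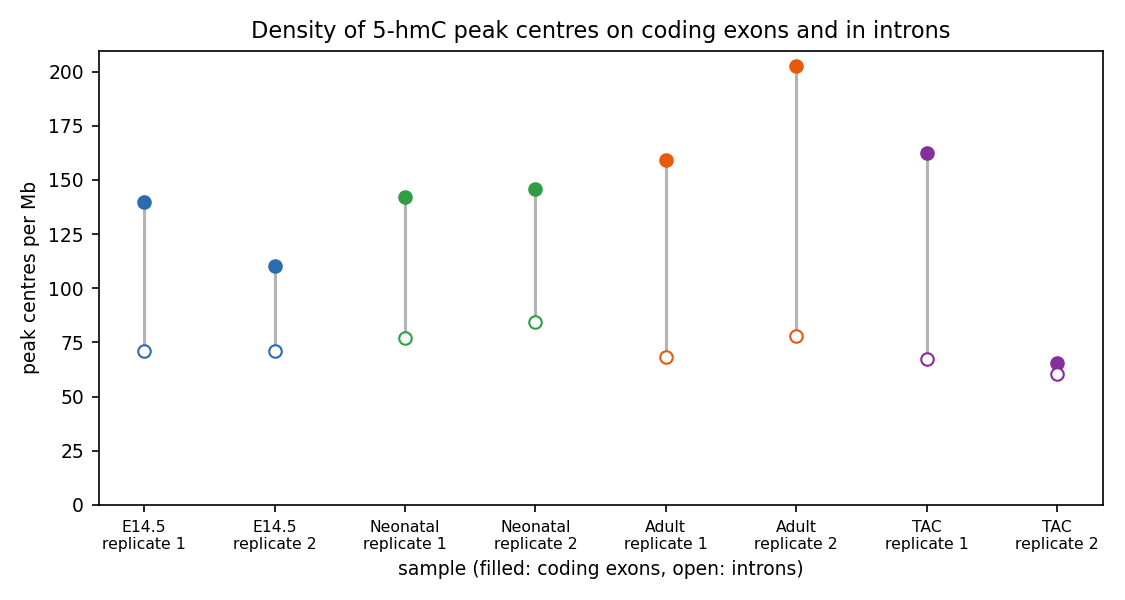
Peak centres per Mb (y axis) on coding exons (filled points) and in introns of protein-coding genes (open points) in each of the 8 samples (x axis), with a grey line joining both values of a sample. The filled point lies above the open one in every sample, and in TAC replicate 2 the values, 65.6 and 60.4, nearly meet.

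The direction turned when density was taken per CpG. Coding exons held 2.69 CpG per 100 bp and introns 0.852, and per 1000 CpG there were 5.20 and 4.10 peak centres on coding exons at E14.5, 5.29 and 5.43 for Neonatal, 5.92 and 7.53 for Adult, and 6.05 and 2.44 for TAC, against 7.09 to 9.90 in introns. The log2 ratio per CpG averaged -0.75, and was below 0 in each sample, with the coding exon value at 0.345 to 0.824 of the intron value (exact permutation test, p = 0.0078). Both statements refer to the same peaks and differ in the denominator alone.

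Bases were next compared at matched CpG density, counted in the 501 bp around each base. Where fewer than 0.5 CpG per 100 bp were present, the density on coding exons was 0.198 to 0.656 of that in introns. The ratio was 0.377 to 0.812 at 0.5 to 1 CpG per 100 bp and 0.603 to 1.06 at 1.5 to 2, where 1 of 8 samples exceeded 1. It was above 1 in 8 of 8 samples from 3 CpG per 100 bp on, with 1.08 to 1.45 at 3 to 4, 1.82 to 2.96 at 4 to 6, and 2.06 to 4.78 at 6 or more. These upper classes held little sequence, since 7.98%, 4.15% and 2.19% of coding bases and 0.687%, 0.258% and 0.081% of intron bases fell into them. Within coding exons the density climbed from 3.6 to 30.4 centres per Mb in the poorest class to 101 to 460 at 4 to 6 CpG per 100 bp, and was lower at 6 or more in 7 of 8 samples, with TAC replicate 2 the exception at 121 against 101. These ratios were not tested.

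**Figure D2:**
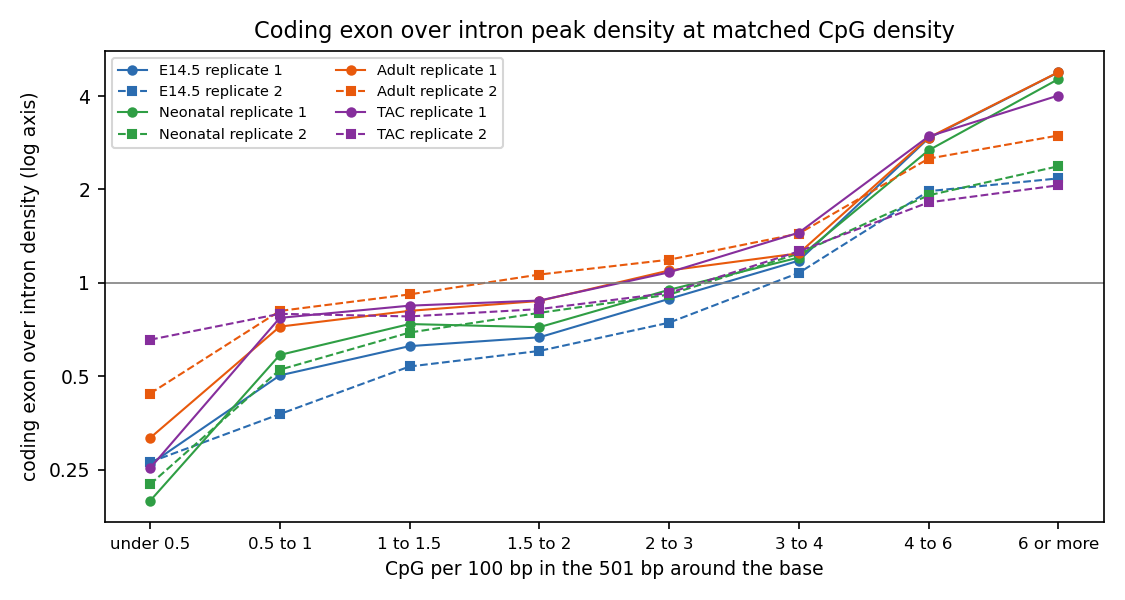
Ratio of the peak density on coding exons to that in introns (y axis, log scale) at matched CpG density in the 501 bp around the base (x axis, CpG per 100 bp), 1 line per sample, with replicate 1 solid and replicate 2 dashed. All 8 lines cross the grey line at a ratio of 1 and lie above it from 3 CpG per 100 bp on.

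CpG content was counted over the whole width of each peak. Coding exon peaks held 2.78 and 2.77 CpG per 100 bp at E14.5, 2.60 and 2.52 for Neonatal, 2.58 and 2.54 for Adult, and 2.64 and 2.28 for TAC. All eligible coding bases held 2.69, which is not a like measure, since the peaks ran beyond the exon. In the 501 bp around the midpoint, exons never marked had a median of 1.40 CpG per 100 bp, against 2.20 for those marked in 1 list. Intron peaks of the same lists held 1.01 to 1.5, beside 0.852 in all introns. The difference between both kinds of peak was 1.21 ± 0.13 (SD, n = 8). Since the rule places the centre in coding sequence, this direction was set by the choice of peaks and is given as a description. Over the 4 points the difference spread from 1.32 and 1.42 at E14.5 to 1.08 and 1.04 for Adult, with 1.21 and 1.19 for Neonatal and 1.14 and 1.28 for TAC; an exact permutation test over all 105 divisions into 4 pairs gave a one-sided p = 0.029, which did not pass after adjustment over 6 values (adjusted p = 0.17). Without TAC replicate 2 its unadjusted exact p was 0.0095. GC content was 52.4 to 54.0% in coding exon peaks against 45.0 to 48.9% in intron peaks, and soft-masked repeats made up 8.42 to 10.1% against 19.2 to 27.0%.

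The enrichment declined over about 300 bp outside the exon in 7 of the 8 samples. Moving away from the nearest coding base, the density in E14.5 replicate 1 was 140 centres per Mb in the exon, 95.1 at 1 to 50 bp, 85.0 at 51 to 100 bp, 73.4 at 101 to 200 bp, 65.6 at 201 to 300 bp and 55.7 at 301 to 400 bp, and came back to 74.99 at 2001 to 3000 bp. Adult replicate 2, the sample with the highest density on exons, had 202, 154, 123, 106, 76.5 and 70.2 over the same steps. In all 8 samples the density at 301 to 400 bp was below that in the exon and below that at 2001 to 3000 bp, but the drop differed in size. In TAC replicate 2 the values stayed between 52.8 and 66.3 at all distances, with 65.6 in the exon, 60.5 at 101 to 200 bp and 64.7 at 201 to 300 bp. The part of the settings behind this list, which the headers do not give, was not tested. A peak of at least 501 bp spans most exons, so these distances describe centres and not the cytosines that carry the mark.

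**Figure D3:**
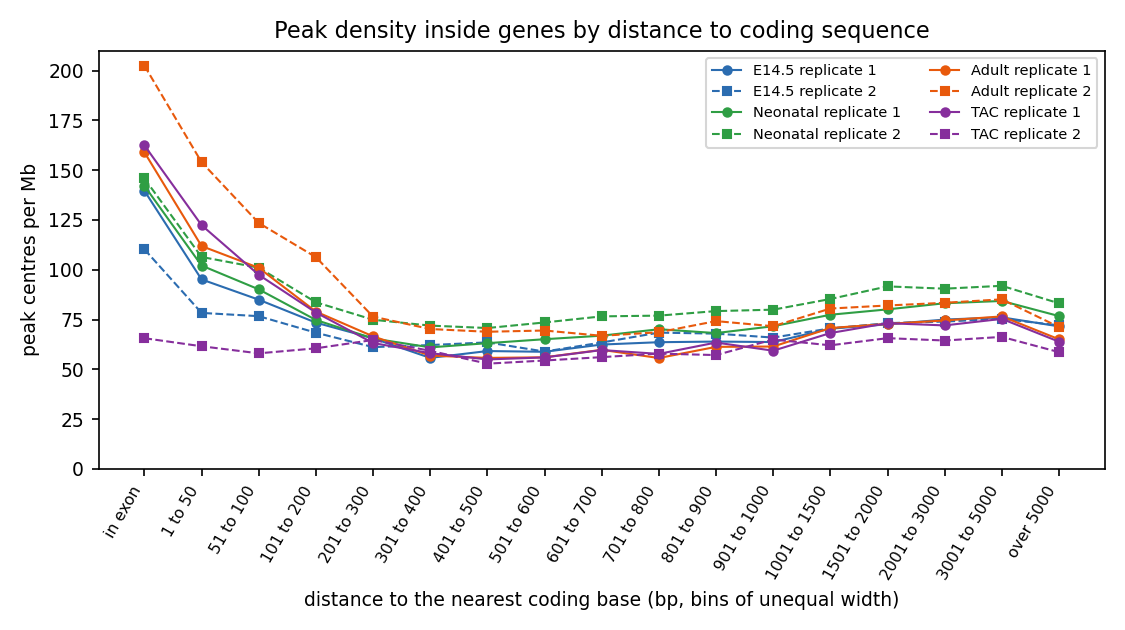
Peak centres per Mb (y axis) in genes by distance to the nearest coding base (x axis, bp, bins of unequal width), 1 line per sample, with replicate 1 solid and replicate 2 dashed. In 7 samples the density drops from the exon to about 300 bp away, whereas the line of TAC replicate 2 is nearly flat.

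Exon length was related to density, and the relation was not a simple climb. Exons were measured by their coding length in the transcript of each gene with the longest coding sequence. In exons under 100 bp the density was 78.0 and 69.1 centres per Mb at E14.5, 89.4 and 105 for Neonatal, 106 and 131 for Adult, and 106 and 65.8 for TAC. In exons of 300 to 499 bp it was 231 and 166 at E14.5, 223 and 217 for Neonatal, 236 and 322 for Adult, and 216 and 53.4 for TAC. It was lower again in exons of 2000 bp or more, at 143 and 112, 131 and 126, 150 and 158, and 140 and 83.4. Per CpG the same order held for the 7 samples other than TAC replicate 2, for example with 3.40, 7.35 and 6.22 centres per 1000 CpG in E14.5 replicate 1 for the 3 classes. The planned comparison of long (1000 bp or more) with short (under 200 bp) exons gave a log2 ratio of 0.56 and 0.44 at E14.5, 0.44 and 0.23 for Neonatal, 0.31 and 0.18 for Adult, and 0.31 and 0.54 for TAC. Its mean was 0.38 ± 0.14 (SD, n = 8), above 0 in 8 of 8 samples (exact permutation test, p = 0.0078, adjusted p = 0.013), and 0.35 without TAC replicate 2 (exact p = 0.016). With exons taken whole, untranslated part included, it was -0.24 (exact p = 0.016). The median length of the exon under the centre was 194 to 227 bp, far below the long class. It was above the median of 122 bp and the upper quartile of 164 bp of exons never marked, which were measured on coding intervals merged over transcripts. A longer exon has more room for a centre.

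**Figure D4:**
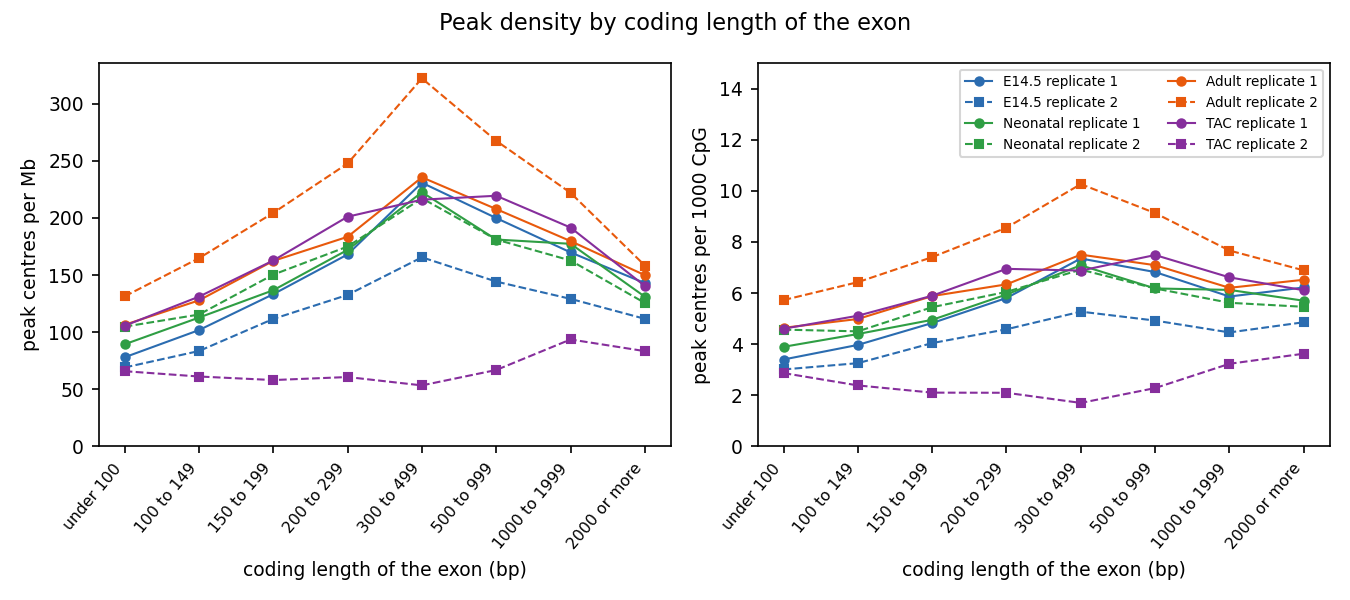
Peak centres per Mb (left, y axis) and per 1000 CpG (right, y axis) by coding length of the exon (x axis, bp, classes), 1 line per sample, with replicate 1 solid and replicate 2 dashed. In 7 samples both measures are higher at 300 to 499 bp than under 100 bp or at 2000 bp or more, and TAC replicate 2 does not follow this shape.

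Density also differed along the transcript. The median rank of the marked exon was 6 or 7. Density in exons of rank 2, which often hold the start codon, was 167 and 129 centres per Mb at E14.5, 189 and 187 for Neonatal, 200 and 242 for Adult, and 212 and 81.1 for TAC. For ranks 6 to 10 it was 132 and 111, 130 and 137, 150 and 190, and 149 and 63.0, lower in each of the 8 samples, and for ranks 21 to 38 it was 126 and 109, 117 and 141, 149 and 190, and 144 and 58.3. Along the coding sequence, the density in E14.5 replicate 1 was 150 in its first 10%, 127 from 40 to 50% and 146 in its last 10%, and in Adult replicate 2 it was 211, 186 and 218. The first coding exons, as far as they lay outside the zone around the start site, carried 172 and 138 centres per Mb at E14.5, 194 and 191 for Neonatal, 227 and 261 for Adult, and 215 and 83.9 for TAC, the highest of the first, internal and last classes in each of the 8 samples. The log2 ratio of first to internal exons was 0.46 ± 0.07 (SD, n = 8), which was computed after the data were seen and not tested. The last coding exons carried 168 and 133 centres per Mb at E14.5, 162 and 157 for Neonatal, 179 and 230 for Adult, and 186 and 60.6 for TAC, against 131 and 104, 134 and 140, 152 and 194, and 153 and 64.5 in internal ones. The log2 ratio averaged 0.23 ± 0.15 (SD, n = 8) and was above 0 in 7 of 8 samples, TAC replicate 2 being the exception at -0.09 (exact permutation test, p = 0.016, adjusted p = 0.020). Without TAC replicate 2 the mean was 0.28 (exact p = 0.016). The excess depended on what was counted: per CpG it was 0.13 (exact p = 0.055), and with the untranslated part of the exons included it was -0.56 (exact p = 0.0078). The part of untranslated sequence in this reversal was not tested.

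Most coding exon peaks touched a single coding exon but ran well beyond it into sequence that was not eligible coding sequence. The median width was 501 to 635 bp, and the mean width, 662 to 909 bp, exceeded that of the intron peaks of the same list, 623 to 859 bp, in each sample. Of the median coding exon peak, 38.6 to 44.7% was eligible coding sequence, and 18.3 to 23.6% of these peaks touched 2 or more coding exons.

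Replicates shared part of these peaks. An overlap of at least 1 bp with a peak of the other replicate was seen for 42.7 and 53.2% of coding exon peaks at E14.5, 55.4 and 50.2% for Neonatal, 57.7 and 43.8% for Adult, and 20.6 and 39.4% for TAC. For intron peaks the overlap was 44.0 and 44.1%, 50.9 and 45.3%, 47.2 and 40.7%, and 22.5 and 26.3%. The difference averaged 5.27 ± 5.37 percentage points (SD, n = 8), above 0 in 6 of 8 samples (exact permutation test, p = 0.039, adjusted p = 0.039). However, the values of a replicate pair are not independent of each other. A sample whose partner is left out has no overlap value, so omitting any 1 sample removed both and left 6 samples. Each such omission ended the call (exact p from 0.062 to 0.16, where the smallest possible is 0.031). Without the TAC samples the difference was 5.15 percentage points (exact p = 0.062).

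Few exons were marked again and again. Of 169299 coding exons with eligible sequence, 19258 (11.4%) held a peak centre in at least 1 list, and they belonged to 9094 of 18073 genes (50.3%). A centre in 1 list only was found for 12475 exons, in 4 lists for 748, in 7 for 147 and in all 8 for 48. Exons never marked had a median length of 122 bp and 1.40 CpG per 100 bp around their midpoint, those marked in 1 list 156 bp and 2.20, those in 2 to 3 lists 203 bp and 2.59, those in 4 to 5 lists 599 bp and 2.99, and those in 6 to 8 lists 1442 bp and 3.39. A longer exon has more room for a centre, so length here reflects the count itself in part. Within a point, 1018 exons held a centre in both E14.5 replicates, 1208 in both Neonatal, 1303 in both Adult and 323 in both TAC replicates. Besides *Irs1* and *Proser1*, the exons marked in all 8 lists that come first in genome order were exons 275 and 307 of 313 of *Ttn* (17106 and 5459 bp), exon 3 of 3 of *Rbm12*, an RNA-binding protein, and exon 2 of 2 of *Tchh*, which encodes trichohyalin of hair follicles. A centre in all 4 E14.5 and Neonatal lists with no touching peak in Adult or TAC was found for 32 of the 169299 exons. The reverse was found for 9, among them exons of *Nab1*, *Topors* (a ubiquitin and SUMO ligase) and D5Ertd579e. Without TAC replicate 2, the list with the fewest coding exon peaks, these numbers were 34 and 74. The second number then needs a centre in fewer lists than the first, so they cannot be set against each other. With a centre in 3 or more lists of a side, the numbers were 148 and 92. The same patterns were not counted in introns or over all regions, so these exons are given as examples only.

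Across the 4 points the share of peaks on coding exons was highest in Adult. The mean was 2.69% ± 0.54 at E14.5, 2.90% ± 0.18 for Neonatal, 4.62% ± 0.29 for Adult and 3.12% ± 1.92 for TAC (SD, n = 2 each). Both Adult values lay above all 4 E14.5 and Neonatal values, and TAC replicate 1, at 4.47%, lay between the Adult replicates. The exact one-sided permutation test over all divisions into 4 pairs gave p = 0.44 (adjusted p = 0.66), and without TAC replicate 2 it gave p = 0.086. A comparison of 2 with 2 samples cannot give a two-sided exact p under 0.33. The log2 ratio of coding exon to intron density gave an exact permutation p = 0.57 (adjusted p = 0.69) over the 4 points and p = 0.14 without TAC replicate 2, and the ratios for last and for long exons gave p = 0.31 each (adjusted p = 0.63), or 0.095 and 0.32 without TAC replicate 2. With only peaks that overlapped the other replicate, the exact permutation test of the share gave p = 0.048. This filter makes the 2 lists of a point alike by construction, so the test cannot then decide whether the points differ.

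Peaks of all lists were then merged into 397412 regions, of which 17567 held a coding exon peak of some list and 175198 were intronic without one. A region was called gained when a peak of both later replicates and none of the earlier ones touched it, and lost in the reverse case. From E14.5 to Neonatal, 798 coding exon regions (4.54%) were gained and 270 (1.54%) lost, against 2.49% and 1.51% of all regions and 2.89% and 1.39% of intron regions. From Neonatal to Adult, 1022 (5.82%) were gained and 666 (3.79%) lost, against 2.42% and 5.05% of all regions and 3.06% and 4.56% of intron regions, so that on coding exons gains outnumbered losses while over all regions losses outnumbered gains. This contrast rested in part on the longer Neonatal lists: with the same number of peaks drawn from each list, 8.40% of coding exon regions were gained and 2.29% lost, against 3.41% and 3.06% of all regions and 4.21% and 2.80% of intron regions, so that gains outnumbered losses in all 3 classes. From Adult to TAC, 177 (1.01%) were gained and 1198 (6.82%) lost, against 1.09% and 3.11% of all regions and 1.14% and 3.71% of intron regions. When TAC replicate 1 alone stood for TAC, 1528 coding exon regions (9.16%) were gained and 1652 (9.90%) lost, against 10.8% and 5.04% of all regions. When TAC replicate 2 alone did, 822 (5.10%) were gained and 2859 (17.7%) lost, against 15.7% and 6.57% of all regions. With either replicate the share gained was thus lower, and the share lost higher, on coding exons than over all regions. However, a region counted as a coding exon region through a coding exon peak of any list, and Adult gave the most such peaks. That choice favours gains into Adult and losses from it by construction, so these shares are given as a description. Adjacent transitions share the lists of the point between them. From E14.5 to Adult, 1604 (9.13%) were gained and 607 (3.46%) lost, against 3.36% and 4.85% of all regions. Coding exon regions were also found in more lists, with 24.8% in a single list and 6.35% in all 8, against 46.8% and 1.67% of all regions, and a region found in several lists has more chances to be called.

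Genes with several marked exons in both replicates were large ones. At least 3 coding exons with a peak centre in both replicates were found in 24 genes at E14.5, 51 for Neonatal, 70 for Adult and 11 for TAC, and at least 5 in 1, 6, 10 and 4 genes. Their median coding length was 8.97, 7.03, 7.08 and 13.5 kb, against 1.16 kb over all genes, and each of them lay above the latter value. A larger gene has more exons that can be marked, so size is given as a description. In single lists, 3 or more marked exons were found in 119 and 81 genes at E14.5, 139 and 145 for Neonatal, 180 and 272 for Adult, and 190 and 20 for TAC. Of the 10 genes with the most marked exons over all lists, 9 are described, and they are giants of the muscle cell or broadly expressed long proteins: *Ttn* (titin, the spring and ruler of the sarcomere), *Dst* (a cytoskeletal linker), *Ryr2* (the calcium release channel of the sarcoplasmic reticulum), *Syne1* (a nuclear envelope linker), *Lrp1* (an endocytic receptor), *Kmt2d* (an H3K4 methyltransferase), *Speg* (a kinase of the junctional membrane), *Fry* (a microtubule-associated protein) and *Hspg2* (perlecan, a basement membrane proteoglycan).

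*Ttn* has 313 eligible coding exons with 103 kb of coding sequence. A peak centre was found in 29 and 14 of them at E14.5, 43 and 35 for Neonatal, 33 and 34 for Adult, and 35 and 9 for TAC, so that E14.5 lay below Neonatal and Adult without overlap and TAC replicate 1 lay among the latter. Over the 8 lists, 116 different *Ttn* exons were marked at least once. *Ryr2* had 4 and 3 marked exons of 104 at E14.5, 9 and 13 for Neonatal, 9 and 9 for Adult, and 6 and 3 for TAC. *Dst* had 6 and 4, 8 and 6, 10 and 7, and 13 and 2 in the same order. Per kb of coding sequence, and averaged over the 8 lists, peaks numbered 0.309 in *Ttn*, 0.303 in *Dst*, 0.471 in *Ryr2*, 0.501 in *Speg* and 0.459 in *Fry*. The values were 0.359 in *Lrp1*, 0.317 in *Hspg2*, 0.276 in *Kmt2d* and 0.190 in *Syne1*. Over all genes the value per list was 0.0656 to 0.202. *Ttn*, first by number, stood below *Speg*, *Ryr2*, *Fry*, *Lrp1* and *Hspg2* per kb. Genes were chosen for their counts, which are given as a description.

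**Figure D5:**
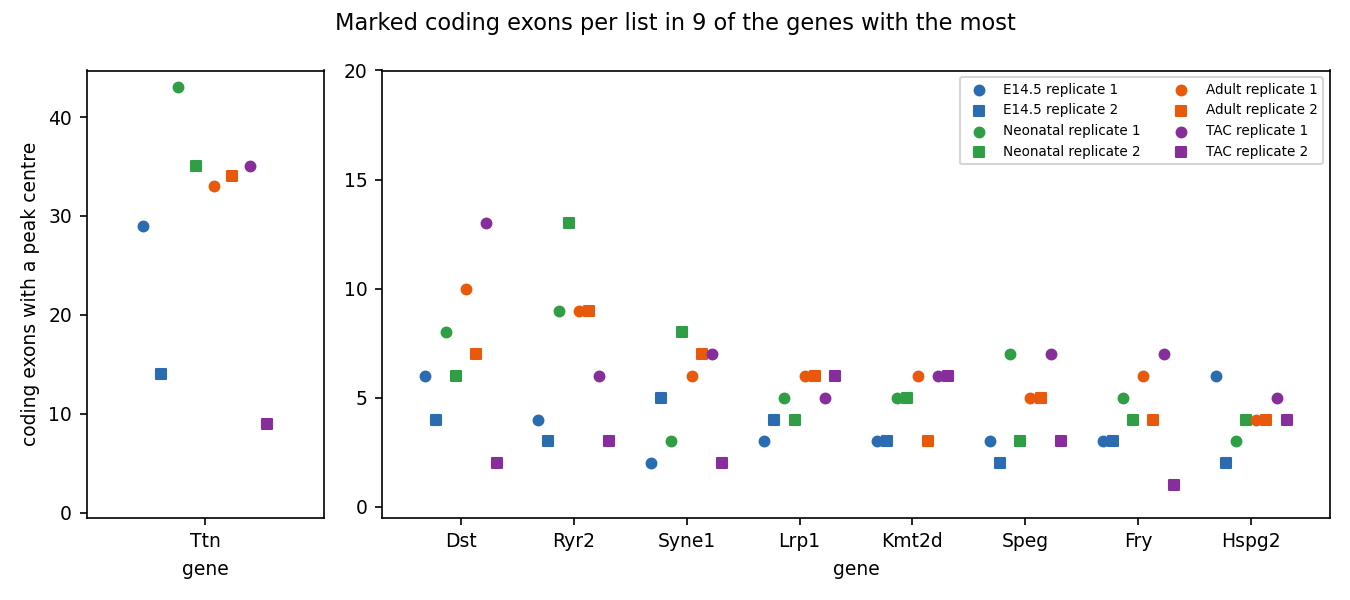
Number of coding exons with a peak centre (y axis) in each of the 8 lists for 9 of the 10 genes with the largest sum (x axis), with *Ttn* on its own axis at left, circles for replicate 1, squares for replicate 2 and colours for the points. *Ttn* ranges from 9 to 43 and the other genes from 1 to 13.

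Genes were also ranked by the change in the number of coding exon peaks among those whose replicates did not overlap between adjacent points. From E14.5 to Neonatal, 2.46% of 18073 genes had more peaks in both replicates and 1.39% had fewer. The largest increases were those of *Ttn* (31 and 17 peaks, then 43 and 37), *Ryr2* (4 and 3, then 9 and 13), *Myo18b*, an unconventional myosin of muscle (1 and 1, then 3 and 6), and *Hmcn2*, an extracellular matrix protein (1 and 0, then 5 and 3). The largest decreases were those of Ccdc162 (2 and 4, then 0 and 0), *Hipk2*, a nuclear kinase (2 and 3, then 0 and 0), *Lmo7* (5 and 3, then 1 and 2) and *Bptf*, a chromatin remodeller subunit (4 and 2, then 1 and 0). *Hipk2* and *Bptf* were back at 2 and 3 and at 3 and 5 for Adult.

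From Neonatal to Adult, 3.56% of genes had more and 1.97% fewer. *Nav2*, a neuron navigator protein, had 2 and 0 peaks and then 8 and 4, and *Sipa1l2* 1 and 3 and then 6 and 7. *Cacna1c*, the L-type calcium channel, had 1 and 4 and then 6 and 7. Fewer peaks were seen in *Actn2*, the Z-disc protein alpha-actinin (5 and 4, then 1 and 2), *Epha2*, an ephrin receptor (3 and 4, then 1 and 0), *Zmiz1*, a transcriptional coregulator (4 and 3, then 0 and 1), and Pcnx2 (4 and 2, then 0 and 0).

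From Adult to TAC, 0.714% of genes had more and 4.34% fewer. More peaks were seen in *Stat5a*, a transcription factor of cytokine signalling (1 and 1, then 5 and 2), *Lrrfip1* (1 and 0, then 2 and 3), *Filip1*, a filamin-binding protein (1 and 2, then 4 and 3), and *Pla2r1* (0 and 0, then 1 and 3). In each of the 4 largest decreases the lower TAC value was that of replicate 2. *Ttn* had 39 and 40 and then 38 and 10, *Cacna1c* 6 and 7 and then 5 and 0, *Ryr2* 9 and 9 and then 6 and 3, and *Sipa1l2* 6 and 7 and then 3 and 1. When TAC replicate 1 alone stood for TAC, the balance turned, with more peaks than both Adult replicates in 7.57% of genes and fewer in 5.01%. In that replicate *Ttn* and *Cacna1c* were each 1 peak below the lower Adult replicate.

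Gene lists of known function are described by their counts, beside those of all genes. At E14.5, Neonatal, Adult and TAC, 7.73%, 9.06%, 10.9% and 4.18% of all genes with eligible coding sequence had a marked coding exon in both replicates. Of 29 sarcomere and Z-disc genes, 14, 16, 18 and 10 had one, and of 20 genes of ion channels and calcium handling 7, 9, 11 and 9. The counts were 14, 8, 15 and 9 of 20 for chromatin and transcription regulators, 8, 8, 8 and 6 of 20 for extracellular matrix genes, and 2, 4, 6 and 2 of 19 for fatty acid and energy metabolism. In TAC replicate 1 alone, 19.7% of all genes were marked, and 22 of the sarcomere, 12 of the ion channel, 14 of the chromatin, 12 of the matrix and 11 of the metabolic genes were, a single list being passed more easily than a pair. Many members of these lists are long, and a long gene has more exons to mark. Per kb of coding sequence, the sarcomere list without *Ttn* had 0.215 and 0.181 peaks at E14.5, 0.362 and 0.268 for Neonatal, 0.288 and 0.282 for Adult, and 0.342 and 0.127 for TAC. The ion channel list had 0.247 and 0.197, 0.333 and 0.345, 0.468 and 0.505, and 0.308 and 0.160. The metabolic list had 0.143 and 0.119, 0.429 and 0.262, 0.405 and 0.453, and 0.429 and 0.0715, from 3 to 19 peaks per list. The chromatin list had 0.229 and 0.150, 0.244 and 0.186, 0.265 and 0.294, and 0.294 and 0.136, and the matrix list 0.191 and 0.153, 0.153 and 0.160, 0.176 and 0.206, and 0.199 and 0.0993. For all genes the values were 0.140 and 0.110, 0.143 and 0.146, 0.160 and 0.202, and 0.163 and 0.0656. Ion channel genes thus had the highest value of the 5 lists in both Adult replicates. Their Adult values did not overlap with those of E14.5 or Neonatal, and the same held for the chromatin list and for all genes. Of the 20 ion channel genes, 4 had more peaks and 0 fewer from Neonatal to Adult, beside 3.56% and 1.97% of all genes, and 0 more and 7 fewer from Adult to TAC, beside 0.714% and 4.34%. With TAC replicate 1 alone, 1 had more and 7 fewer, beside 7.57% and 5.01%. From Neonatal to Adult, 5 chromatin genes had more and 1 fewer, 3 and 5 sarcomere genes, 2 and 0 metabolic genes, and 0 and 1 matrix genes. From Adult to TAC these numbers were 0 and 3, 2 and 4, 0 and 1, and 0 and 1.

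Families with a particular exon structure were counted in the same way. Zinc finger genes, which often carry their fingers in a single long exon, had a marked exon in both replicates in 7.27%, 8.31%, 12.5% and 4.94% of genes over the 4 points, and 0.0762 to 0.167 peaks per kb in the lists other than TAC replicate 2. For 99 genes of the cadherin superfamily the counts were 13, 18, 22 and 6, for 11 laminin genes 5, 4, 7 and 3, for 42 collagen genes, built of many short exons, 7, 7, 5 and 4, and for 15 dynein heavy chain genes of cilia 4, 4, 5 and 2. The shares of all genes were 7.73%, 9.06%, 10.9% and 4.18%, and long genes have more exons to mark. Per kb, cadherin genes had 0.173 and 0.0883 peaks at E14.5 and 0.180 and 0.149 for Adult. Laminin genes had 0.176 and 0.147, and 0.235 and 0.206, beside 0.140 and 0.110, and 0.160 and 0.202, for all genes. The dynein heavy chains had 0.0468 to 0.0728 peaks per kb in the lists other than TAC replicate 2, below the value of all genes in each of these 7 lists, and 0.0156 in TAC replicate 2. Zinc finger genes lay below all genes in each list too, and the reason was not tested. Collagen genes had 0.130 and 0.0865 at E14.5 and 0.0703 and 0.103 for Adult, also below all genes in those lists. Beside these shares of all genes, 1 of the 8 fibroblast markers had a marked coding exon in both E14.5 replicates and none had in the other groups. Among the 8 CMC markers 4, 5, 5 and 4 had one. Of the 8 endothelial markers, 2 had one at E14.5, 2 for Neonatal, 2 for Adult and 0 for TAC, and the part of these cells in the results was not tested. In TAC replicate 1 alone, 1 fibroblast, 6 CMC and 3 endothelial markers were marked, beside 19.7% of all genes.

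Of 12 genes followed in the study, 6, 5, 3 and 2 had a marked coding exon in both replicates at E14.5, Neonatal, Adult and TAC, beside the 7.73%, 9.06%, 10.9% and 4.18% of all genes. Per kb they had 0.330 and 0.212 peaks at E14.5, 0.165 and 0.260 for Neonatal, 0.142 and 0.212 for Adult, and 0.236 and 0.0708 for TAC, above the value of all genes in 7 of 8 lists. The study chose these genes, in part on these samples, and single genes had few peaks. *Myh7*, the fetal myosin heavy chain, had 1 and 3 at E14.5, 1 and 2 for Neonatal, 0 and 0 for Adult, and 1 and 1 for TAC. *Gata6*, a cardiac transcription factor, had 2 and 0, 1 and 2, 0 and 0, and 0 and 0. *Ppara*, a regulator of fatty acid oxidation, had 0 and 0, 1 and 0, 1 and 2, and 1 and 0, and *Xirp2*, an actin-binding protein of the intercalated disc, 1 and 1, 2 and 1, 1 and 0, and 2 and 2. Of the dioxygenases themselves, *Tet1* had 0 and 0, 0 and 0, 2 and 1, and 2 and 0, *Tet2* 2 and 1, 0 and 1, 0 and 1, and 0 and 0, and *Tet3* 3 and 1, 1 and 3, 2 and 2, and 2 and 0. Summed over the 8 lists, *Mef2c* had 9 marked exons, *Myl3* 3, *Mef2a* 2, *Myl4* 1 and *Gata4* 1. With counts this low, a difference of 1 peak between points did not exceed the difference between replicates of most of these genes.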

How the data were processed

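5-hmC in isolated CMCs was measured by hMeDIP sequencing in 8 samples (4 points, 2 biological replicates each). Reads were mapped by the authors with BWA (0.7.4-r385) on mm10, duplicates were marked with Picard, reads of mapping quality under 10 were dropped, and HOMER called peaks per replicate in histone mode against an input. The deposited score column holds the value 1 for each peak, so the files give positions only. In 4 lists the input was scaled to the precipitated library and in the other 4 the reverse. Removal of poorly mapped reads and duplicates lowers the signal on repeats. Depth was unknown per list beyond the lower bounds that the study states per condition, and no file of the input or sh-control samples was used.

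Peak centres were placed on GRCm38, which is mm10, using 43783 curated transcripts of RefSeq. The 20021 protein-coding genes gave 28.8 Mb of eligible coding exon, and introns (845.8 Mb) were held to the same exclusion zones. Exon rank and length followed the longest coding sequence of each gene. A coding exon was called marked when it held a peak centre, and a peak in overlapping genes was counted for each. Differences within samples were tested by exact exchange of signs and differences over the 4 points by all divisions into pairs, with Benjamini-Hochberg adjustment in each family (5 and 6 values). The steps were tested on simulated data. Named genes were the 10 with the most marked exons, the 4 largest increases and decreases per transition among genes whose replicates did not overlap (ties by change per kb), 12 genes of the study, and exons marked in the most lists or on 1 side of birth to adulthood only, in genome order, of which 3 are not reported here. Members, lists and tests were chosen with earlier results of these data known. Python 3.11.15, numpy 2.4.6, scipy 1.17.1 and matplotlib 3.10.9 were used. Alternatives were GENCODE, equal peak numbers, whole exons, no exclusion, overlap in place of centre, replicated peaks, density per CpG, and omission of samples.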

Additional observations from a re-analysis of the deposited data

How the results depend on the processing

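The excess of coding exons over introns per base kept its direction and stayed past the threshold under GENCODE, equal peak numbers, whole exons, no exclusion zones and omission of any 1 sample. The depth of each single list was unknown, so a peak missed at lower depth cannot be told apart from an absent one, which limits gained and lost regions. Omitting a sample leaves a point with 1 list, in which a region or gene passes more easily by construction.

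Per CpG the log2 ratio of coding exons to introns was reversed at -0.75. With whole exons the last over internal ratio was reversed at -0.56 and the long over short ratio at -0.24. The last over internal ratio was weaker per CpG (0.13). The replicate overlap was no longer past the threshold at 3.49 percentage points with whole exons and 3.22 with peaks up to 1 kb apart shared. The same held at 5.15 in the 6 samples without TAC, and at 4.75 to 5.73 when any 1 sample, and with it its partner, was left out. The CpG difference over the 4 points (Adult minus E14.5, -0.31) was no longer past the unadjusted threshold without exclusion zones (-0.31), with replicated peaks (-0.29), in the 6 samples without TAC (-0.31, where the smallest possible p is 0.067), and in 5 of 8 omissions (-0.36 to -0.26 over all). With replicated peaks 3 tests over the 4 points passed it: the share (Adult minus E14.5, 2.74 percentage points), the last over internal ratio (-0.092) and the long over short ratio (-0.24). Without TAC replicate 1 the exon to intron ratio (0.49, and 0.33 to 0.66 over all omissions) and the last over internal ratio (-0.11, and -0.12 to -0.11) passed it. The cause was not tested.

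Whether replicate numbers pair the samples is not known. The deviations of same-numbered replicates correlated with r of 0.028 to 0.25 over regions. Only 1 of 6 values exceeded 0.1, that of E14.5 with Neonatal, and a pairing of these points was not tested. With the replicate block the CpG difference over the 4 points (-0.31) was no longer past the threshold (exact p = 0.083), and no other call changed. The tests within samples are the same with and without the block by construction.

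Counts moved more. With membership by overlap, 1408 coding exon regions were gained and 569 lost from E14.5 to Neonatal, 1981 and 1449 from Neonatal to Adult, and 426 and 2256 from Adult to TAC, and genes with 3 or more marked exons numbered 920, 1343, 1660 and 496 over the 4 points. With equal peak numbers, 372 coding exon regions were lost from Neonatal to Adult (gains then outnumbered losses over all regions too), and the genes were 11 at E14.5 and 24 in Neonatal. With replicated peaks they were 5, 20, 19 and 5, with at least 2 exons 149, 212, 298 and 60, and with whole exons 19 in TAC. Omitting a sample gave 764 to 2107 gains and 259 to 1415 losses from E14.5 to Neonatal, 964 to 3028 and 628 to 1675 from Neonatal to Adult, 160 to 1528 and 1151 to 3275 from Adult to TAC, and 24 to 119, 51 to 145, 70 to 272 and 11 to 190 genes.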
